A study of Mus musculus with 7 samples.

Results

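The genes described here are those whose value in the library labelled 48 h lay beyond both the 14 h and the 24 h library of a light-induction time course. With 1 row per gene, the one with the highest mean over the 7 libraries, 2937 of 20385 genes had a value of at least 5 in at least 1 of these 3 libraries and were considered. A gene was called where its 48 h value lay at least 2-fold above both others or at least 2-fold below both, on the scale log2(value + 1). By this rule 83 genes were higher at 48 h (2.83% of those considered) and 30 were lower (1.02%). The step given for a gene is the log2 ratio of 48 h to the nearer of 14 h and 24 h, and it is 0 where 48 h lay between them.

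The cells were E14, a mouse embryonic stem cell line, carrying a Brn2-RFP GAVPO induction cassette, in which the light-switched transcription factor GAVPO drives Brn2 together with a red fluorescent protein. All libraries share the line, the cassette and the 2i media, which hold mouse stem cells in the naive state. Cells on an Ibidi plate were lit with an LED at 300 µW for 0, 2, 4, 6, 14, 24 or 48 h, and messenger RNA was sequenced from RNA taken with an RNeasy kit and built into libraries with a Lexogen SENSE kit. The series asks which transcripts follow Brn2 induction, and each time point has 1 library, so no ratio has a replicate check and no p-value is given. The 14 h and 24 h libraries are different times and not replicates, but they show how far neighbouring libraries lie apart: 111 of the 2937 genes (3.78%) differed between them by at least 2-fold.

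Brn2, listed as Pou3f2, belongs to the class III POU factors, which bind octamer-like sites, often beside Sox proteins, and are expressed in neural progenitors and neurons. Cells that become neurons switch on proneural factors, then neuronal precursor factors such as Nhlh1, Sox4 and Sox11, and then tubulins, adhesion and synaptic proteins. The Notch pathway, in which ligands on one cell activate receptors on the next and so induce Hes genes, holds neighbouring cells in the progenitor state.

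The induced gene went against the 48 h label. Pou3f2 had values of 77.0, 36.9, 47.4, 96.2, 119 and 41.3 from 0 to 24 h and 7.19 in the library labelled 48 h. The 48 h library was the lowest of the 7, below the library labelled as unlit. Times named below are the labels of the libraries, and every direction rests on the label of the 48 h library. No source used here says whether cassette reads count towards Pou3f2.

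The 48 h library was the deepest of the 3 compared, with about 16.1 M reads against 9.09 M at 14 h and 9.94 M at 24 h. It also gave more weight to GC-rich transcripts. Genes were ranked by transcript GC content and cut into 10 equal groups. In the lowest group (median GC content 41.2%) the median log2 ratio was -0.44 to 14 h and -0.77 to 24 h, and in the highest (60.7%) it was 0.35 and 0.71. Of the 83 higher genes, 28 lay in the GC-richest group and 0 in the poorest, while 16 of the 30 lower genes lay in the poorest and 1 in the richest. When the trend with transcript GC content was removed from each ratio, 50 genes were higher (1.7%) and 11 lower (0.375%). Of the genes first called, 41 (1.4%) and 8 (0.272%) were called in both ways and are said below to be kept. For many genes the step with the trend removed stands beside the step, and for others it is not given. The part of GC content in the calls not kept was not tested.

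**Figure D1:**
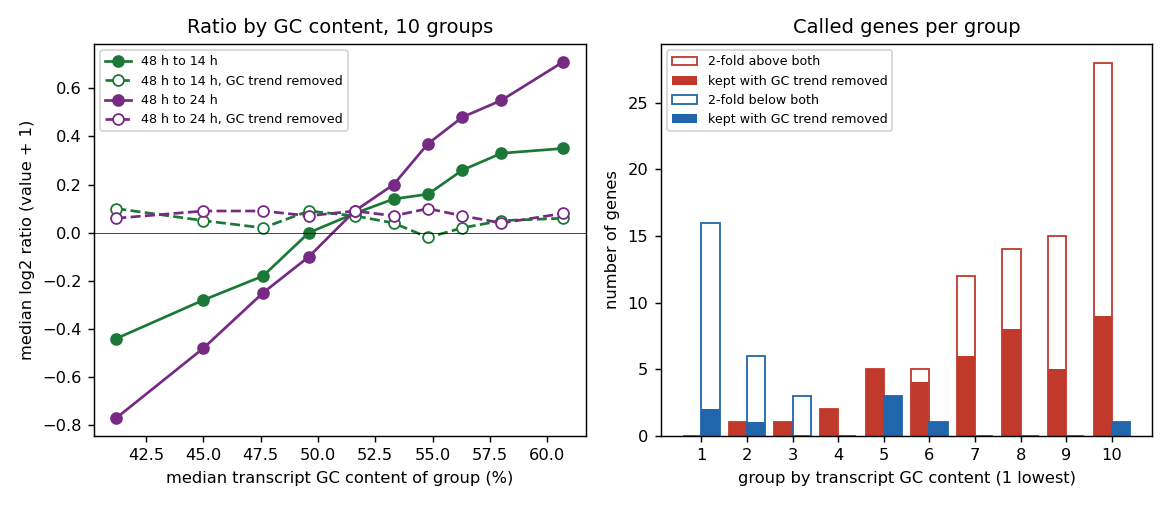
Left, the median log2 ratio of the 48 h library to 14 h and to 24 h (vertical axis) in 10 equal groups of genes by transcript GC content (horizontal axis, %), as deposited (filled) and with the GC trend removed (open); right, the number of genes called per group, with those kept filled. The ratio to 24 h goes from -0.77 to 0.71 across the groups, and 28 of the 83 higher genes lie in the GC-richest group.

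The minimum value also favours upward calls. Of the 83 higher genes, 43 reached a value of 5 only in the 48 h library (28 of the 41 kept), so they could enter only by being higher there. Among the 2687 genes with a value of at least 5 at 14 h or 24 h, 40 were at least 2-fold higher (1.49%) and 30 at least 2-fold lower (1.12%).

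**Figure D2:**
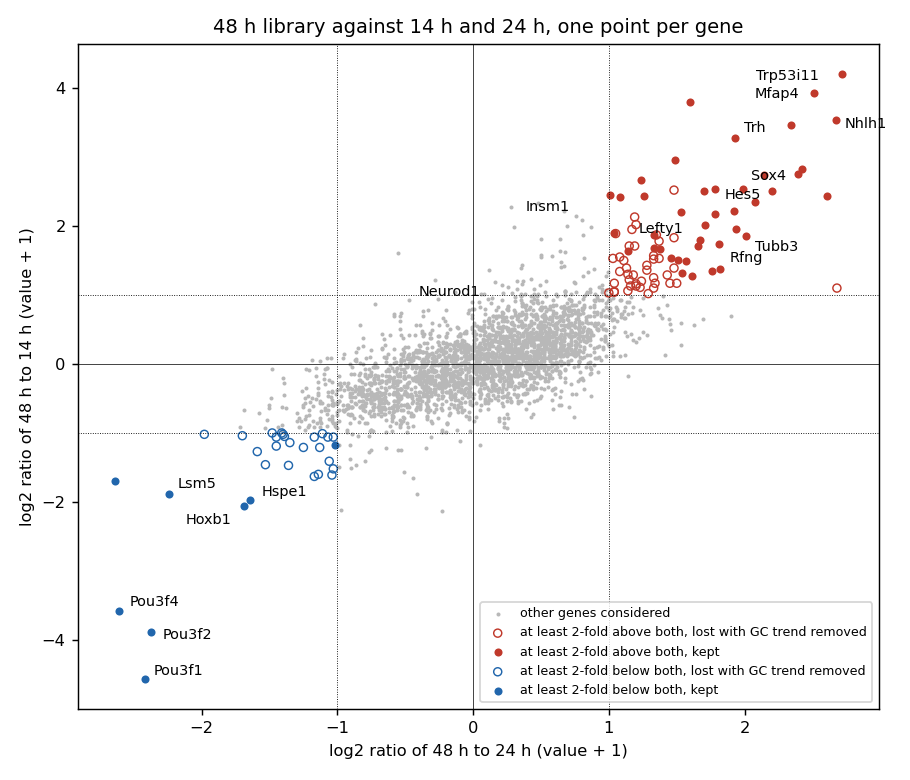
Each point is 1 of the 2937 genes, by its log2 ratio of the 48 h library to 24 h (horizontal) and to 14 h (vertical), with dotted lines at 2-fold. Filled red and blue points are the 41 higher and 8 lower genes kept with the GC trend removed, and open ones are the called genes lost with it; Pou3f1, Pou3f2 and Pou3f4 lie farthest down.

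Transcription factors of neuronal precursors included Nhlh1 and Sox4, with large upward steps. Counts of called list members, here and below, are to be read against 2.83% higher and 1.02% lower over all genes considered. Of 32 neuronal transcription factors in the table, 6 were considered and 3 were higher at 48 h: Nhlh1, Sox4 and Sox11. All 3 reached a value of 5 only at 48 h, so their count carries no weight of its own and their values are given as a description. The other 3 factors had a median step of 0.00, or 0.11 with the GC trend removed, against 0.00 over all genes with a value of at least 5 at 14 h or 24 h. In bulk RNA, more cells of a type and more RNA per cell cannot be told apart.

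Nhlh1, a basic helix-loop-helix factor of newborn neurons, had values of 0.114, 0.124, 0.294, 0.0964, 0.124 and 1.04 from 0 to 24 h and 12.0 at 48 h. These rest on about 6 reads at 14 h, 55 at 24 h and 1023 at 48 h. Its 48 h value was 11.5 times that at 24 h (95% interval from the reads 8.75 to 15.4, which covers counting error only), a step of 2.67, or 2.41 with the GC trend removed. All 6 other libraries lay at or below 1.04, far under the last one.

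Sox4, a Sox factor that acts in neuronal differentiation, stood at 1.05, 1.38, 1.92 and 1.46 in the early libraries up to 6 h, then 3.50 and 4.76 in the 14 h and 24 h libraries, and 29.2 in the last. The 48 h value was 6.14 times that at 24 h (5.36 to 7.07), a step of 2.39 that came to 2.44 with the GC trend removed. Sox11, its close relative, had 0.501 to 1.04 in the libraries to 14 h, 2.69 at 24 h and 6.60 at 48 h. Its step of 1.04 was larger, at 1.48, once the trend was removed, at a transcript GC content of 46.5%, but it came to 0.59 with a pseudocount of 5 and to 0.98 with the libraries centred on their medians, both short of 2-fold. For both genes the 24 h library was already the second highest.

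The promoters of Sox4, Sox11 and of the Notch genes Dll3 and Hes5, described next, are shown because these genes stepped up together and each window holds a searched motif. The windows run from 250 bases before to 50 after the transcript's start, from RefSeq on GRCm38.p6, and are written on the gene's strand. Capitals mark the E-box CAGCTG, bound by basic helix-loop-helix factors, and, read from either strand, the Rbpj motif GTGGGAA, bound by the DNA-binding partner of Notch.
Sox4 (chr13:28953650-28953949, minus strand): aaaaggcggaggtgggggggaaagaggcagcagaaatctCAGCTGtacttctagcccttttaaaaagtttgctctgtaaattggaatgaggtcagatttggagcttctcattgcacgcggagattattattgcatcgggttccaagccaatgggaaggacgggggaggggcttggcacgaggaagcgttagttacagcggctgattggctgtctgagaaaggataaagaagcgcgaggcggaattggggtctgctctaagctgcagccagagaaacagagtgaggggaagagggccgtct
Sox11 (chr12:27342669-27342968, minus strand): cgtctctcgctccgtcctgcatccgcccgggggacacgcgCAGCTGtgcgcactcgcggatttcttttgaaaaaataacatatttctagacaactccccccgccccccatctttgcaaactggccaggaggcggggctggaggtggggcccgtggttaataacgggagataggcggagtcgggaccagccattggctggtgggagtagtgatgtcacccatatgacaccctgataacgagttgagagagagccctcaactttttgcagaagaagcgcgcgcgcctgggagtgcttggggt
Dll3 (chr7:28301736-28302035, minus strand): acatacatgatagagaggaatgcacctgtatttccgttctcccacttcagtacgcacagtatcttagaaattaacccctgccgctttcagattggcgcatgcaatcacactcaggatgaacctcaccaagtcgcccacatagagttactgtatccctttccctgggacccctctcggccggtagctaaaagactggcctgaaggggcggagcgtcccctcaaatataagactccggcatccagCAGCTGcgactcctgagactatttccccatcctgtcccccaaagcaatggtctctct
Hes5 (chr4:154960673-154960972, plus strand): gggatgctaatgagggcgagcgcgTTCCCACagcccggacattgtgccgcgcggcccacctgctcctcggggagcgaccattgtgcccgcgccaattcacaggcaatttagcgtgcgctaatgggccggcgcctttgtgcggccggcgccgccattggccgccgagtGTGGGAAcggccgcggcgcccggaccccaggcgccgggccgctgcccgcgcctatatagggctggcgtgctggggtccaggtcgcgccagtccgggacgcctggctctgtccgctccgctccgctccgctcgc

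Both strands were searched for these motifs and for the octamer ATGCAAAT, a POU factor site, which 0 of these 4 windows held. The windows of Nhlh1, Rfng and Tubb3, which were also higher at 48 h, held none of the searched motifs. CAGCTG lay in 13 of the 71 higher genes with a window (18.3%), against 11.8% of the 2415 windows of all genes considered and 16.1% of all 27025 windows in the table. GTGGGAA lay in 4 of the 71 (5.63%), against 5.3% and 6.39%, and Hes5 held it 2 times. ATGCAAAT lay in 3 of the 71 (4.23%), against 1.37% and 1.75%, and in 0 of the 35 kept genes with a window. The shares of the first and second motif among the higher genes were thus near those of all promoters, and a match is a description of the letters, not of binding.

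The other factors of the list were not called. Neurod1, a proneural effector, had values of 22.4 at 14 h, 60.7 at 24 h and 43.6 at 48 h, between the others. Insm1, a zinc-finger factor of neuronal and neuroendocrine precursors, had 5.60, 16.3 and 28.2, and its step of 0.76 shrank to 0.11 with the GC trend removed. Hes6, a Hes family member found in differentiating neuronal cells, was lower, at 46.9, 41.9 and 32.0, a step of -0.38.

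The Notch pathway had 28 genes in the table and 5 considered, of which 3 were higher at 48 h and all 3 kept: Hes5, Dll3 and Rfng. Over all genes considered 2.83% were higher and 1.4% higher and kept. Hes5, Dll3 and the uncalled Nrarp reached a value of 5 only at 48 h, so the count of 3 carries no weight of its own. The other 2 members, Rfng and Hes1, entered without that library. Their median step was 1.02, or 0.79 with the GC trend removed.

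Among the ligands, Dll3, an atypical Delta that is held inside the cell, had values of 0.457, 0.399, 0.604, 0.852, 0.841 and 2.20 from 0 to 24 h and 9.40 at 48 h. Its ratio of 4.28 to 24 h (3.66 to 5.0) is a step of 1.70, or 1.07 with the trend removed and 0.98, short of 2-fold, with transcript length removed as well. Rfng, the Radical fringe enzyme that adds sugars to Notch receptors, lay between 6.82 and 12.8 in all earlier libraries, with 11.1 at 14 h and 10.5 at 24 h, and was 39.4 at 48 h. Rfng had passed the minimum in every library, so its entry did not depend on the last one. Its step was 1.74, or 1.22 with the trend removed.

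Hes5, a repressor induced by active Notch, had values of 0.152 at 14 h, 0.416 at 24 h and 5.52 at 48 h. The early values rest on 2 and 6 reads, and the ratio of 13.3 has a wide interval of 5.93 to 36.8. The step was 2.20, or 1.55 with the trend removed. Hes1, the related target, differed far less, at 20.6, 20.9 and 26.1, a step of 0.31. Nrarp, a feedback inhibitor, had 3.16, 2.73 and 6.38, a step of 0.83 short of 2-fold.

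Several Notch genes under the minimum value were also highest at 48 h. Genes under the minimum were not part of the GC check, so their values are given as deposited only. Dll4, a Delta ligand, had 0.322, 1.13 and 2.87 at 14, 24 and 48 h. Mfng, the Manic fringe enzyme, had 0.188, 0.795 and 2.52. The receptor Notch1 had 0.959, 1.09 and 2.88, and the ligand Jag1 had 0.758, 1.03 and 2.88. Maml1, a coactivator, did not follow, at 2.73, 1.57 and 1.86.

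**Figure D3:**
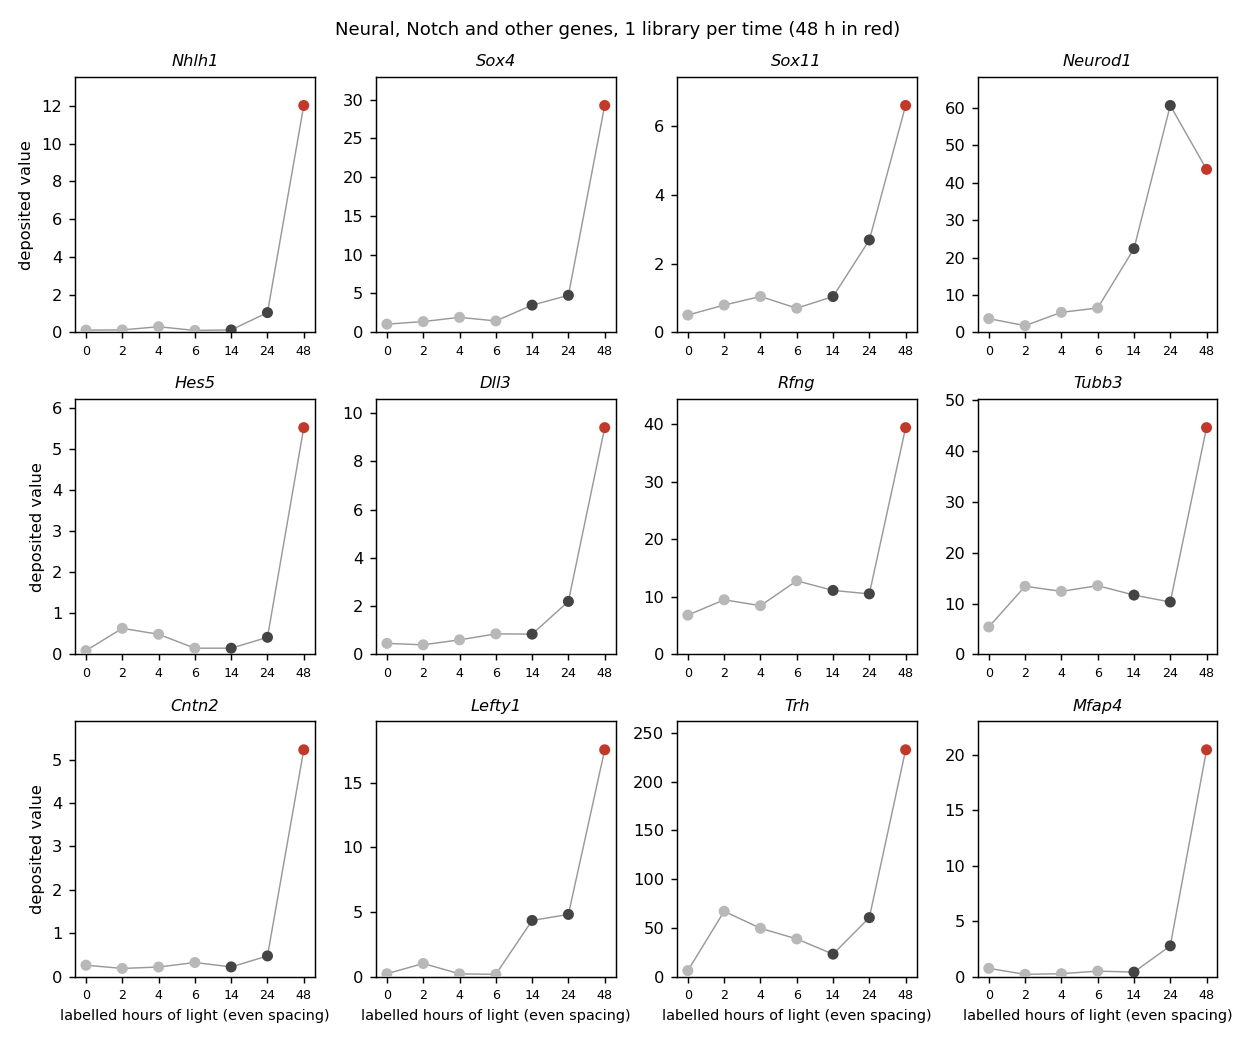
Deposited value (vertical axis, linear, from 0, its own scale in each panel) of 12 genes in each of the 7 libraries, which are spaced evenly along the horizontal axis and not by hours. The 48 h library, in red, is the highest in 11 panels; Neurod1 has its highest value at 24 h.

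The neuronal cytoskeleton, adhesion and synapse list had 40 genes in the table and 7 considered, of which Tubb3 and Ina were higher and Tubb3 was kept. Of the 7, 3 reached a value of 5 only at 48 h, Ina among them, and the other 4 had a median step of 0.60, or 0.51 with the GC trend removed. Tubb3, the neuron-specific beta tubulin, had values of 5.40, 13.4, 12.4, 13.5, 11.7 and 10.3 from 0 to 24 h and 44.6 at 48 h. Its ratio of 3.82 to the nearer library, 14 h, had an interval of 3.59 to 4.07, a step of 1.85 or 1.51. The libraries from 2 to 24 h formed a level band, and only the last stood above it.

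Tubb2b, a tubulin of young neurons, had 78.6, 79.1 and 129, a step of 0.70. Ina, the neurofilament internexin, had 2.87, 2.22 and 6.84, and its step of 1.02 came to 0.81 without the trend. Stmn1, a microtubule regulator of dividing and neuronal cells, lay between its neighbours, at 72.1, 98.9 and 85.3. Cntn2, an axonal adhesion molecule on no list, lay between 0.188 and 0.477 in the other 6 libraries and reached 5.23 at 48 h.

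Below the minimum, where again no GC check was made, Crmp1, a growth-cone protein, had 0.930, 2.19 and 4.29 at 14, 24 and 48 h. The RNA-binding protein Celf3 had 0.164, 0.135 and 1.54. Scrt1, a neuronal zinc-finger repressor, had 0.148, 0.203 and 3.04, and the proneural factor Neurog1 had 1.65, 1.87 and 4.61. Others of these lists were not higher at 48 h or hardly so: Pou4f1, a factor of sensory neurons, had 1.32, 0.920 and 1.05, Tlx3, another, 1.36, 0.85 and 1.38, and Stmn2, a microtubule regulator of growing axons, 2.41, 3.70 and 3.68. Dcx and Map2, genes of maturing neurons with long introns, whose values the scaling by span lowers, had low values that were highest at 48 h. Dcx had 0.00426, 0.0156 and 0.107 at 14, 24 and 48 h, and Map2 0.0345, 0.0489 and 0.116.

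Progenitor genes were mixed. Of 24 in the table, 8 were considered, Hes5 and Sox3 were higher and Pou3f4 was lower. Without Hes5, which reached a value of 5 only at 48 h, the median step was 0.22. Sox3, a Sox factor of the early neural plate, had 5.32, 7.93 and 17.2, and its step of 1.03 came to 0.34 with the trend removed, at a transcript GC content of 66.4%. Sox2 had 69.9, 71.5 and 97.0, a step of 0.43. Pax6 and Fabp7 stayed at or below 0.140 in all 3 libraries, and Nes, the intermediate filament of progenitors, had 2.49, 1.33 and 1.89.

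Outside the neural lists, Trh, the precursor of thyrotropin-releasing hormone, stood at 6.16, 66.9, 49.5, 38.6, 23.0 and 60.4 from 0 to 24 h and at 232 at 48 h. The ratio to 24 h was 3.85 (3.64 to 4.06), a step of 1.93, or 1.68 with the trend removed. The 2 h and 24 h libraries had nearly the same level and the 48 h library lay above both.

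The largest step of all higher genes was that of Trp53i11, a p53-inducible gene by its name, with values of 0.962 to 1.93 in the libraries up to 6 h, then 0.566, 3.37 and 27.7 at 14, 24 and 48 h. Its 48 h value was 8.22 times that at 24 h (7.49 to 9.05), a step of 2.72, or 2.21 with the trend removed. Mfap4, a protein of extracellular microfibrils, had 0.404, 2.77 and 20.5, a step of 2.51 or 2.31. G0s2, an inhibitor of fat breakdown, had 1.71, 4.89 and 28.7, and Gpx2, a glutathione peroxidase, had 1.40, 9.99 and 32.2. In these 4 genes the 24 h library already lay above 14 h. Over the kept genes, 32 of 41 were higher at 24 h than at 14 h, 10 of them at least 2-fold, against 1427 of 2937 and 67 of 2937 over all genes considered. Of the 41, 28 reached a value of 5 only at 48 h, against 250 of the 2937. The 2 sets thus entered differently, and the comparison carries no weight of its own.

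Fignl2, a relative of the microtubule-severing ATPase fidgetin, had 3.05, 2.60 and 20.9, with no such lead at 24 h. Ly6g6e, a membrane-anchored Ly6 protein, had 2.18, 3.83 and 20.3, and it overlaps Ly6g6d, so reads may be shared. Nnat, the membrane protein neuronatin, had 0.0912, 0.459 and 6.79 and lies within Blcap. Rtl8a, Rtl8b and Rtl8c, near-identical genes derived from a retrotransposon, had steps of 1.92, 1.66 and 1.53, or 1.34, 1.08 and 1.02 with the trend removed. They count as 1 uncertain observation, since reads may be split between the copies. Cyp1b1, a cytochrome P450 that acts on retinoids and steroids, had 0.109, 0.633 and 5.47, and Crabp2, a retinoic acid carrier, had 1.22, 5.02 and 11.1.

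Of signalling genes, Lefty1, a secreted inhibitor of Nodal, was the 1 of 7 considered Nodal pathway genes called. It reached a value of 5 only at 48 h, so this count carries no weight of its own. Of the 5 members with a value of at least 5 at 14 h or 24 h, 0 were called, with a median step of 0.21. Lefty1 stood at 0.220, 1.01, 0.211 and 0.174 in the libraries up to 6 h, then 4.34, 4.81 and 17.6 at 14, 24 and 48 h, a step of 1.67 or 1.14. Lefty2, its neighbour in sequence, had 12.3, 12.5 and 25.6 and a step of 0.98, just short of 2-fold. Both inhibitors were thus higher than in any earlier library, while the co-receptor Tdgf1 had 38.4, 43.8 and 48.3. Id1, an inhibitor of helix-loop-helix factors induced by BMP, had 3.77, 5.92 and 16.5, a step of 1.33 or 1.02. Id3 had 35.4, 13.9 and 38.8, and Id2 4.65, 8.67 and 8.42.

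Of 11 immediate early genes considered, Btg2, Dusp1 and Jun were higher, with Btg2 and Jun kept and the median step at 0.00. Of 16 p53-responsive genes considered, Btg2 and Cdkn1a were higher and kept, with a median step of 0.33. Over all genes considered 2.83% were higher, and Jun reached a value of 5 only at 48 h. Dusp1 had 15.4 at 2 h and 13.6 at 6 h, then 5.15, 5.44 and 13.3 at 14, 24 and 48 h, so its 48 h value lay in the early range. Btg2, an antiproliferative gene also on the p53 list, had 20.4, 20.1, 35.7, 32.4, 6.53 and 19.2 from 0 to 24 h and 46.6 at 48 h. Its step of 1.24 is taken against 24 h, whose value was near those at 0 h and 2 h. Its value at 14 h was low, and that at 4 h lay within 2-fold of 48 h. Cdkn1a, the cell-cycle inhibitor p21, lay between 5.14 and 9.39 in the other 6 libraries and reached 18.6 at 48 h, a step of 1.33 or 1.08. Trp53 itself had 20.3, 23.2 and 35.3, a step of 0.59, and Ccng1, another p53 target, had 37.7, 78.2 and 39.8.

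The other kept genes had values under 20 or lie on no list, and their steps ran from 1.08 to 1.94. Gamt, an enzyme of creatine synthesis, had 1.40, 1.43 and 8.33 at 14, 24 and 48 h, and Serping1, the complement C1 inhibitor, had 0.524, 3.22 and 10.9. Mex3b, an RNA-binding protein, had 0.673, 1.80 and 8.64, and Nkx1-2, a homeobox factor of the caudal epiblast, 0.194, 1.71 and 5.49. Mycl, a Myc family factor, had 3.10, 3.32 and 10.9, Rec8, a meiotic cohesin subunit, 1.79, 1.64 and 6.84, and Pcsk1n, an inhibitor of a neuroendocrine protease that overlaps Eras, 2.61, 1.64 and 8.30. Ifitm1, an interferon-inducible membrane protein, had 23.5, 61.1 and 130 and Rsrp1, an arginine- and serine-rich protein, 13.6, 19.6 and 44.5. In Rsrp1 the 0 h value, 33.2, and the 6 h value, 39.7, lay close to that at 48 h.

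The 42 higher genes whose call was lost with the GC trend removed had a median transcript GC content of 58.9%, against 55.9% in the kept 41 and 52.5% in all genes considered. The largest such steps at a value of at least 20 were those of Chchd10, a mitochondrial protein (1.48, or 0.84 with the trend removed), Ddit4, a stress-induced inhibitor of mTORC1 (1.37 or 0.87), and Mdk, the growth factor midkine (1.33 or 0.71). Mfsd10, a transporter, had 1.20 or 0.67, and Fscn1, the actin-bundling protein fascin, 1.19 or 0.57. In 20 of these 42 (47.6%) the 6 h library was the highest of the other 6, against 25.9% over all genes considered. The 6 h library also leant to GC-rich transcripts: its difference in median deviation between the highest and lowest GC group was 0.47, against 1.06 at 48 h, 0.29 at 14 h and -0.42 at 24 h.

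Pluripotency genes are given by list. Of 18 naive pluripotency genes considered, Gbx2 was higher and none lower, and of 13 core genes Utf1 was higher and none lower. Of 10 formative and primed genes, Sox4, Sox3 and Pim2, a kinase, were higher and Pou3f1 was lower, with Sox4 and Pou3f1 kept; Sox4 entered only through the 48 h library. Gbx2, a homeobox factor that supports the naive state, had 5.60, 11.7 and 27.9, and Utf1, a chromatin protein of stem cells, had 111, 163 and 364. Neither was kept, with steps of 1.19 and 1.15 that came to 0.62 and 0.48. Pou5f1, the Oct4 gene, had 176, 219 and 235, and Nanog had 33.4, 48.5 and 67.3. Dppa5a had 885, 560 and 491. The labelled cell type was thus present in all 3 libraries, with 7 of 8 embryonic stem cell markers at or above a value of 5.

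Markers of other cells were checked beside the neural genes. The summed values of 9 markers of neurons and their precursors were 43.3, 94.5 and 138 at 14, 24 and 48 h. Of these Tubb3 made 11.7, 10.3 and 44.6, Insm1 5.60, 16.3 and 28.2, and Neurod1 22.4, 60.7 and 43.6. The sums of 6 neural progenitor markers were 9.62, 10.2 and 26.5. Of these Sox3, which was not kept, made 5.32, 7.93 and 17.2, and Hes5 0.152, 0.416 and 5.52. Nes and Pax6 were lower at 48 h than at 14 h. The 7 endoderm markers summed to 1.24, 1.91 and 5.36, of which Foxa2 made 0.617, 1.42 and 4.62. The 6 mesoderm markers summed to 1.12, 1.45 and 1.70, with Msgn1 at 0, and the 4 astrocyte markers to at most 0.518. The 6 trophoblast markers summed to 2.12, 2.48 and 5.15, of which Tfap2c made 4.67 at 48 h, with Elf5 at 0. The 9 fibroblast markers summed to 8.56, 6.60 and 5.65, of which Twist1 made 8.08, 4.98 and 2.29, and the 4 haematopoietic markers to at most 0.315. These sums are on the deposited scale, which lowers genes with long introns, so they are read across libraries within a list and not between lists. The part of other cells in the steps was not tested.

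Downward, the class III POU factors had the largest steps. All 3 members considered were lower and kept, with a median step of -2.42, or -2.62 with the GC trend removed. The fourth, Pou3f3, stayed under the minimum at 1.33, 0.426 and 0.627. These genes lay on both sides of the GC range (44.4% to 63.9%).

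Pou3f2, with 119, 41.3 and 7.19 at 14, 24 and 48 h, had a ratio of 0.174 to 24 h (0.159 to 0.190), a step of -2.37, or -1.78 with the trend removed. Pou3f1, a factor of the formative epiblast and of Schwann cells also called Oct6, stood at 270.5, 117.5, 152, 189, 446 and 100.4 from 0 to 24 h and at 18.0 at 48 h. Its ratio to 24 h was 0.179 (0.167 to 0.191), a step of -2.42 that came to -3.10 without the trend, at a transcript GC content of 63.9%. Pou3f4, a factor of the developing brain and inner ear, stood at 36.7, 28.8, 34.4, 80.2, 55.4 and 27.7 and then at 3.71, a step of -2.61 or -2.62.

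In all 3 the 48 h library was the lowest of the 7 and at least 2-fold below the 6 h library too, and the 24 h library already lay at least 2-fold below 14 h in Pou3f1 and Pou3f2. Those 2 are the only lower genes of the 30 for which 24 h was that far below 14 h. The GC-poor Pou3f2 lost and the GC-rich Pou3f1 gained in size when the trend was removed, and both stayed past 2-fold.

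**Figure D4:**
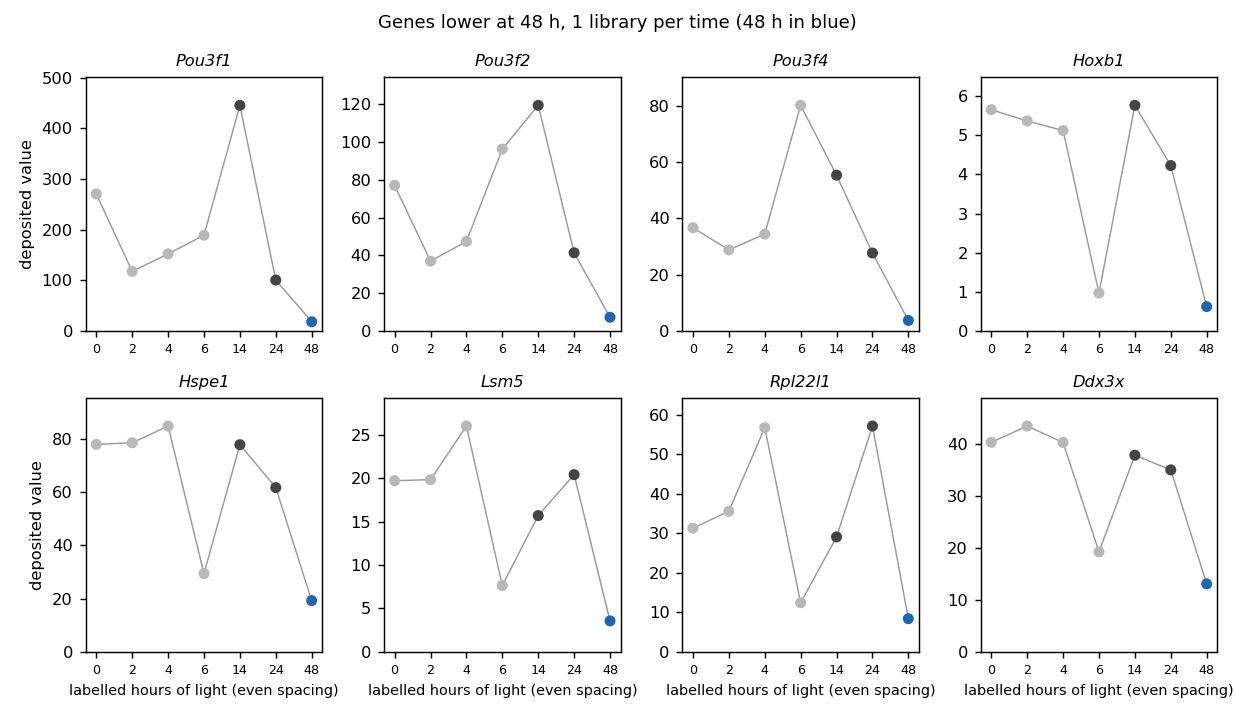
Deposited value (vertical axis, linear, from 0, its own scale in each panel) of 8 genes that were lower in the 48 h library, shown in blue, in each of the 7 libraries, spaced evenly and not by hours. The 3 Pou3f genes are low at 48 h and not at 6 h, while Hoxb1, Hspe1, Lsm5, Rpl22l1 and Ddx3x are low at both.

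Most, but not all, of the other lower genes also had low values in the 6 h library. In 24 of the 30 (80.0%) the 6 h library was the lowest of the other 6, against 18.5% over all genes considered. The median transcript GC content of the 30 was 43.0%, against 52.5% over all genes considered. The GC-poorest group had a median deviation of -0.25 at 6 h, against -0.53 at 48 h, -0.08 at 14 h and 0.27 at 24 h. The part of GC content in this share was not tested. With 6 h as a further reference, 4 of the 30 lay at least 2-fold below all 3, which were the 3 Pou3f genes and Sub1, a transcriptional coactivator. Sub1 was chosen for mention after its values were seen, and it had 9.87, 10.9, 12.4, 7.07, 7.04 and 9.56 from 0 to 24 h and 2.87 at 48 h, with a step of -1.06 that came to -0.49 with the trend removed. Of the 83 higher genes, 53 lay at least 2-fold above 6 h as well.

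Hoxb1, a Hox factor of the hindbrain, had values of 5.66, 5.37 and 5.12 from 0 to 4 h, 0.966 at 6 h, and then 5.77, 4.23 and 0.620. Its step was -1.69, or -1.87 with the trend removed, and its 48 h value rests on 25 reads. Hspe1, the mitochondrial chaperonin Hsp10, had 78.1, 78.7 and 85.0, then 29.4 at 6 h, 78.0, 61.8 and 19.2. It shares its promoter region with Hspd1, which it overlaps. These 2 genes had nearly level values in 5 libraries and low ones at 6 h and 48 h.

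Lsm5, a part of the ring that binds U6 RNA, had 7.64 at 6 h, 15.7, 20.4 and 3.54 at 14, 24 and 48 h, a step of -1.88 or -1.09. Rpl22l1, a paralog of a ribosomal protein, had 12.4 at 6 h and 29.0, 57.1 and 8.32 later, a step of -1.69 or -1.17. Ndufc1, a subunit of respiratory complex I, had 14.7, 13.2 and 6.00, a step of -1.02. When transcript length was removed with GC content, the steps of Lsm5 and Ndufc1 came to -0.77 and -0.72, short of 2-fold.

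Twist1, a mesenchymal helix-loop-helix factor, was not among the 30, with values of 8.08, 4.98 and 2.29 and a step of -0.86, but its step came to -1.43 with the trend removed. It had 1.35 to 2.5 in the libraries up to 6 h, so its 48 h value lay in the early range.

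The 22 lower genes whose call was lost with the trend removed had a median GC content of 42.4%. Ddx3x, an RNA helicase, had 37.9, 35.0 and 13.1, a step of -1.36 that came to -0.52. Hmgn2, a nucleosome-binding protein, had 283, 291 and 122 (-1.21 or -0.77), and its relative Hmgn1 99.9, 66.8 and 32.0 (-1.04 or -0.64). Ncl, the nucleolar protein nucleolin, had 77.2, 89.1 and 34.4 (-1.14 or -0.64), and Hsp90b1, a chaperone of the endoplasmic reticulum, 58.6, 55.5 and 24.8 (-1.13 or -0.50). Each of these 5 was also low at 6 h, with 19.2 for Ddx3x, 141.5 for Hmgn2, 33.1 for Hmgn1, 50.3 for Ncl and 23.3 for Hsp90b1.

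In the large housekeeping lists, counts are to be read against 2.83% higher and 1.02% lower over all genes considered. Of 82 cytoplasmic ribosomal protein genes considered, 0 were called in either direction, with steps between -0.99 and 0.75. Of 77 oxidative phosphorylation genes, 0 were higher and Ndufb6 and Ndufc1 were lower, and of 30 proteasome genes 0 were called. Of 24 genes of G2 and mitosis 0 were called, with a median step of -0.06, and of 28 replication genes Rpa3 was lower. Against those shares, counts of 0 or 1 in lists of this size are near the background. Of 23 cholesterol and fatty acid synthesis genes Idi1 was lower, and of 16 heat shock genes Hspe1 was. Ccnb1, the mitotic cyclin, had 70.2, 82.3 and 46.4, a step of -0.59 that came to -0.21 with the trend removed, and Hspa8, the constitutive Hsp70, had 1838, 1983 and 1572. In 40 lists together, 22 distinct genes were higher and 10 were lower.

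**Figure D5:**
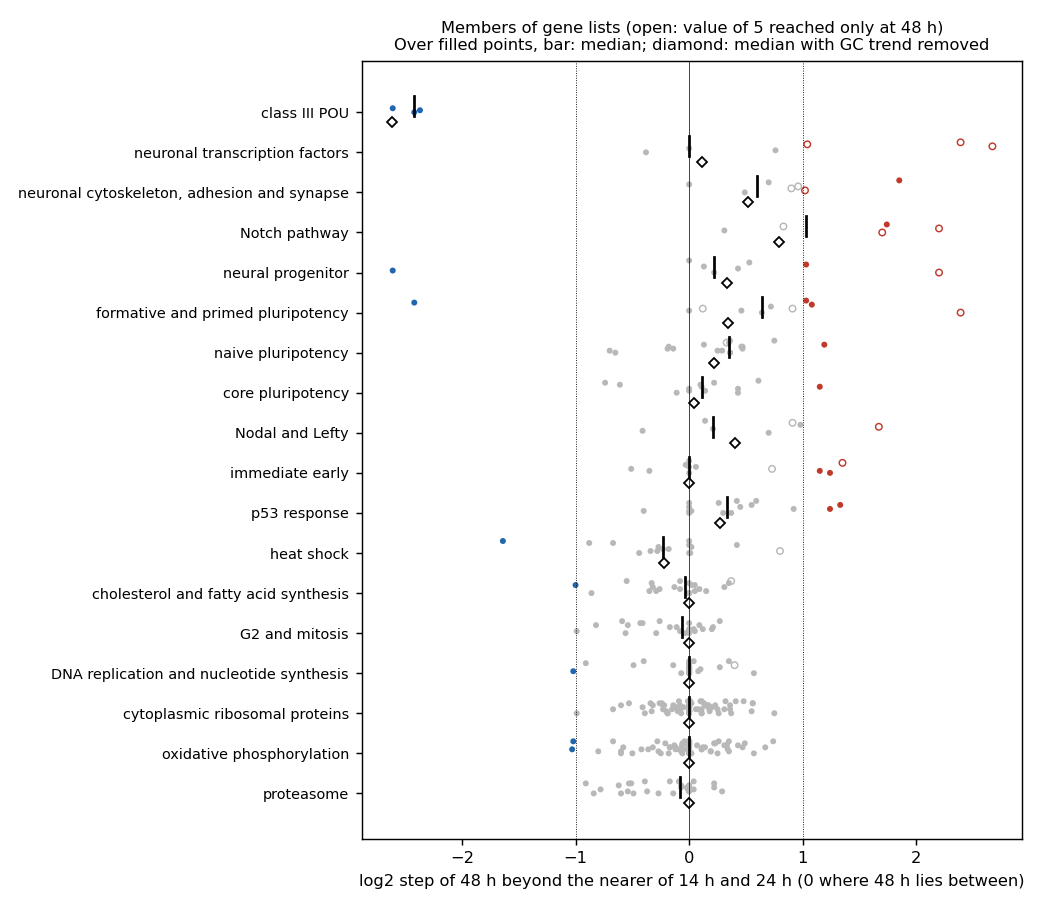
Each point is a considered member of 1 of 18 gene lists, by its log2 step of 48 h beyond the nearer of 14 h and 24 h (horizontal axis, 0 where 48 h lies between), red where at least 2-fold higher and blue where at least 2-fold lower, and open where a value of 5 was reached only at 48 h; bars and diamonds are medians of the filled points without and with the GC trend removed. The class III POU bar lies at -2.42, and the bar of the neuronal transcription factors, whose 3 called members are open points, lies at 0.00.

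Set in the whole course, most called genes had a 48 h value outside the range of the early libraries. The call itself favours such a place, and 43 of the 83 higher genes entered only through the 48 h library. The shares that follow thus carry no weight of their own. Among the higher genes 79 of 83 (95.2%) lay above all of the 0, 2, 4 and 6 h libraries, and all 41 kept ones did, against 41.7% of all genes considered. The remaining higher genes, Dusp1, Ddit4, Pidd1 and Crip2, had 48 h values inside the early range. Among the lower genes 29 of 30 (96.7%) lay below all of them, against 25.8%. The exception was Hsp90b1, with 23.3 at 6 h and 24.8 at 48 h. Only 4 of the 30 lay at least 2-fold below 6 h, and in some the difference was small, as in Idi1 with 11.8 at 6 h and 11.4 at 48 h. The 48 h value was above both 14 h and 24 h by any amount in 1298 genes (44.2%), below both in 927 (31.6%) and between in 712 (24.2%).

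In transcript length, promoter GC content and overlap the higher genes differed little from the rest, but they had shorter genomic spans. The median span of the higher genes was 4185 bases, and 4080 in those kept. It was 7892 over all genes considered and 7032 in the lower ones. The deposited values behave as scaled by span, and the part of span in the calls was not tested. The median transcript length of the higher genes was 2008 bases, against 2091 over all genes considered and 2643 in the lower ones. The median GC content of their promoter windows was 62.7%, against 61.0% and 64.8%, so the order seen in transcripts (57.2%, 52.5% and 43.0%) did not recur in promoters. Another protein-coding gene overlapped 12 of the 83 (14.5%) and 614 of the 2937 (20.9%).

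Some calls end on another scale of the low values. Among others, the steps of Hes5 (0.96), Cntn2 (0.90), Cyp1b1 (0.89), Serping1 (0.95), Rec8 (0.80), Mycl (0.94) and Pcsk1n (0.81) fell short of it. So did those of Jun (0.81), Id1 (0.97), Nkx1-2 (0.64), Crabp2 (0.69), Hoxb1 (-0.72) and Ndufc1 (-0.73). Crabp2 also came to 0.94 with the libraries centred on their medians.

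At the threshold, the nearest genes inside with a value of at least 20 were Gps2, a subunit of a corepressor complex, with a step of 1.0, and Zscan10, a zinc-finger factor of stem cells, with 1.04. Nearest outside were Lefty2 and Sh3bgrl3, both at 0.98. On the lower side Idi1, an enzyme of isoprenoid synthesis, and Rpa3, a subunit of the single-strand DNA-binding complex, lay just inside at -1.0 and -1.02. Rsl1d1, a nucleolar protein, and Top2a, a topoisomerase of dividing cells, lay just outside at -1.0 and -0.99.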

How the data were processed

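Messenger RNA was sequenced in 7 libraries, 1 per labelled time. The submitters' processing notes name Bowtie2 and mm9; no source used here gives its version, the counting method or strand use. The deposited table gives 1 number per RefSeq transcript and library, in a unit its header does not name. Between 77.9% and 79.9% of values of 2 to 20 reads lay within 0.1 of a whole read (20% by chance) when multiplied by genomic span and depth, so the value behaves as reads per kilobase of span scaled to library size. Levels of genes with introns are thus lowered and are not compared between genes. Depth was 7.04 to 16.1 M reads. Spans were those of GRCm38, so read numbers are approximate.

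Of 30673 rows, 3320 start-site rows, all 0, and 695 further placements were left out; 26359 of 26658 transcripts had a symbol, and 3683 genes had several rows. Log2 ratios used a pseudocount of 1, which understates changes of low genes. The GC trend was a natural spline (5 degrees of freedom) of each ratio on transcript GC content, known for all 2937 genes, with the mean kept. Intervals of ratios are exact binomial (Clopper-Pearson, 95%), from reads. No test was made. Simulated data with known steps were used to check the steps. Python 3.11.15, pandas 2.3.3, scipy 1.17.1 and patsy 1.0.2 were used.

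Named genes were Pou3f2; per direction up to 15 genes of value at least 20 with the largest steps kept without the GC trend, and the 5 largest lost with it; up to 5 called and 3 uncalled members of each list; and the 2 nearest genes on each side of the threshold. Predicted genes were passed over and not all are reported. Genes with a value under 20 that are on no list, and list members under the minimum, were chosen for mention after their values were seen. The members, the 40 gene lists and the alternatives were chosen with earlier results of these data known.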

Additional observations from a re-analysis of the deposited data

How the results depend on the processing

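No paired analysis was possible because the labels give no replicate numbers and each time has 1 library. Against 83 higher and 30 lower genes, counts of higher and lower were 31 and 10 with a pseudocount of 5, 33 and 13 with a minimum value of 20, 50 and 11 with the GC trend removed (48 and 10 with a spline of 3 degrees of freedom), and 51 and 9 with GC and length removed. A step of 1.5-fold gave 271 and 179, and a step of 4-fold gave 10 and 3. The 24 h library as the lone reference gave 146 and 136, and 14 h alone gave 153 and 54. A minimum of 1 gave 152 higher genes and a pseudocount of 0.1 gave 59 lower ones. Chosen after seeing the data, 6 h as a further reference gave 53 and 4, and a value of at least 5 at 14 h or 24 h gave 40 higher genes. The 22 list members higher became 11 (pseudocount 5), 36 (minimum 1), 9 (minimum 20), 14 (GC and length removed), 34 (24 h alone), 34 (14 h alone) and 12 (at least 5 at 14 h or 24 h). The 10 list members lower became 4 (pseudocount 5), 16 (pseudocount 0.1), 6 (minimum 20), 32 (24 h alone) and 21 (14 h alone). Under median centring, quantile normalization, summed rows, overlapping genes left out and a minimum of 100 reads (this last added after seeing the data) the counts were 71 to 95 and 27 to 45, the most being quantile normalization's 45. The difference between the highest and lowest of 10 GC groups, 0.79 to 14 h and 1.48 to 24 h, was -0.04 and 0.02 with the trend removed and -0.085 and -0.0027 by promoter GC content; the cause was not tested. Of 154 named genes, 25 lost the call with the GC trend removed, 21 with a pseudocount of 5 and 5 with median centring, and 0 changed direction. Depth limits called genes with few reads in a library, such as H4c12 with 6, 6 and 36 reads at 14, 24 and 48 h (ratio interval 1.41 to 9.84) and Hes5 with 2, 6 and 129.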
